A study of Homo sapiens with 108 samples.

Results

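The 3′ UTR intervals of 5000 or more bases were chosen by length alone, as the distance between the start and end given in the deposited tables, without use of any measured value. They numbered 1270 of 69079 intervals, in 1262 genes, and held 22.2% of all interval bases in the table. Their median length was 6546 bases and the longest, in SMAD2, spanned 32872 bases, while 155 were 10000 bases or longer. T>C rates were computed for the 936 intervals, in 932 genes, that had at least 500 reads summed over the 12 libraries of the non-targeting hairpin (NT). Of the others, 267 had fewer NT reads and 67 had none. These 936 well-read long intervals were set beside 3598 intervals of 500 to 1500 bases with the same read minimum, weighted so that both sets had the same spread of CPM, the deposited read count in NT scaled to library size.

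All libraries came from HEK293T cells, a human embryonic kidney line, that carried a lentiviral short hairpin RNA, were selected with puromycin, and were labelled with 10 µM 4-thiouridine (4SU) for 24 h, with fresh medium every 8 h. The sources used here describe selection of the transduced cells and no cloning step. Each of 9 arms had its own hairpin, which was NT or targeted a gene: the zinc finger genes ZMAT3, ZMAT5, ZNF706, ZFP36L1 and MAZ, or PHF7, CNOT4 and BRCA1, whose proteins carry related finger domains. Each arm was chased with 1 mM uridine for 0, 2, 4 or 8 h with 3 replicates per time, so there were 12 libraries per arm and 108 in all. The study asked whether zinc finger proteins that bind RNA alter the stability of mRNAs, and NT was the common control of all 8 comparisons. In SLAM-seq, alkylated 4SU is copied as C, so the T>C rate, conversions over covered T positions, tracks RNA made during labelling and its loss during the chase.

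The 3′ UTR is the part of an mRNA between the stop codon and the poly(A) tail. It carries the poly(A) signal, AU-rich elements bound by decay factors, Pumilio sites and sites paired by miRNA seeds, so a longer 3′ UTR offers more places where the fate of the mRNA can be set. Long 3′ UTRs are common among mRNAs for signalling proteins, transcription factors and RNA-binding proteins, and many contain several poly(A) signals and so can end at several places.

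The sequences below show the elements that were counted, in stretches of 30 bases of hg38 read 5′ to 3′ on the strand of the gene, with the counted letters in capitals. NUCKS1, the long interval with the most NT reads per kb, had its last AATAAA poly(A) signal at chr1:205712830-205712859, minus strand. SMAD2, the longest interval, had its last signal at chr18:47808958-47808987, minus strand. HIPK2, which changed in 6 of the 8 comparisons but not all in 1 direction, held an AU-rich core (TATTTAT) at chr7:139562114-139562143, minus strand. MDM2 held a Pumilio core (TGTANATA) at chr12:68842578-68842607, plus strand.
NUCKS1, poly(A) signal: acaatcatatatAATAAAagataatgttta
SMAD2, poly(A) signal: gttggtaataaagAATAAAggtggaaatga
HIPK2, AU-rich core: tccctctttttTATTTATaaatgtctactt
MDM2, Pumilio core: actgatatgttTGTAAATAcagaagtgaaa

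Seed matches and A runs were the other elements that the results below return to. The mature sequences of hsa-let-7a-5p and hsa-miR-17-5p are those of RefSeq with GRCh38.p14, and capitals mark the seed, bases 2 to 8. YOD1 held a match to the let-7 seed (CTACCTC) at chr1:207048973-207049002, minus strand, and a match to the miR-17 seed (GCACTTT) at chr1:207047864-207047893, minus strand. An A run, here 8 or more consecutive A counted once, stood in RPL37 at chr5:40830493-40830522, minus strand, and in HIPK2 at chr7:139572600-139572629, minus strand.
hsa-let-7a-5p: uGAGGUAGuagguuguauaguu
hsa-miR-17-5p: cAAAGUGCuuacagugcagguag
YOD1, let-7 seed match: gttgaagcctaCTACCTCacacatccagaa
YOD1, miR-17 seed match: tctgcaaattaGCACTTTgcttatctgcaa
RPL37, A run: ccacctcAAAAAAAAAAAAAAAtccttgaa
HIPK2, A run: agaaaaaggAAAAAAAAAAAgtcaataaca

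Every element was present in more of the long intervals than of the intervals of 500 to 1500 bases, as their length gives. An AATAAA was present in 98.9% of the 936 long intervals and in 80.7% of the matched short ones, with a median of 6 copies in the long intervals. The AU-rich core was present in 78.7% against 23.3%, the Pumilio core in 72.4% against 20.4%, and an A run in 85.4% against 19.3%. The let-7, miR-17 and miR-19 (TTTGCAC) seed matches were present in 35.9%, 70.3% and 46.7% of the long intervals and in 6.55%, 13.3% and 8.62% of the matched short ones. Per kb the order changed with the element. Long intervals had 0.295 AU-rich cores and 0.215 Pumilio cores per kb against 0.330 and 0.270 in the matched short ones, but 0.344 A runs per kb against 0.256. An AATAAA stood in the last 50 bases of 70.2% of the long and 62.1% of the matched short intervals. All searches were of the sense strand only, and a match is a description of the letters and not evidence of binding.

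Position on the Ensembl canonical transcript was checked for the 936 long intervals, with classes set after the values were seen. In 833 of them at least 80% of the bases lay in the canonical 3′ UTR. In 27 at least 50% of the bases lay in an intron of the canonical transcript, 46 had at least 50% outside it, and 30 had another position. Another gene lay on the opposite strand within 85 of the 936, and with no strand setting given for the counting, reads of both genes cannot be told apart there. The table holds 1 total per interval, so the place of the reads inside an interval is not known.

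Reads in 3′ UTR intervals numbered 8206060 to 13359455 per NT library. The shallowest library was replicate 3 of PHF7 at 8 h with 63659, and the highest total was 30750027, also in the PHF7 arm. The mRNA of the hairpin's target was at 56.4% of the NT mean CPM with the BRCA1 hairpin, 12.4% with MAZ, 33.8% with PHF7, 26.6% with ZMAT3, 10.7% with ZMAT5 and 49.5% with ZNF706, and the groups were free of overlap with MAZ and ZMAT5 only. It was at 89.7% for CNOT4 and at 160% for ZFP36L1, so the latter are given as the libraries labelled ZFP36L1 and no direction is drawn for a loss of that protein. PHF7 mRNA was barely detected, at 2.10 ± 3.24 CPM in NT and 0.709 ± 0.936 CPM with its hairpin (SD, n = 12), so its percent is poorly resolved. Markers of HEK293T cells were present, with 383 to 953 summed CPM per library. PAX2 was at 0 in 62 of 108 libraries. Markers of blood, liver, endothelium and fibroblasts summed to 0 to 21.3 CPM outside the PHF7 arm and to at most 165 CPM within it. The highest sum was COL1A1 alone, which had a median of 7.68 CPM and was at 0 in 1 of 108 libraries. The other fibroblast marker, COL1A2, was at 0 in 97 libraries, and each of the remaining markers in 67 or more.

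The long intervals took a small share of the reads. In NT they held 6.07% to 6.48% of the reads over the 12 libraries. The share was 5.34% to 6.72% over the BRCA1, MAZ, PHF7, ZMAT3, ZMAT5 and ZNF706 arms, 6.40% to 9.62% in CNOT4 and 6.25% to 8.20% in the libraries labelled ZFP36L1. In all 9 arms the mean share at 8 h of chase was above that at 0 h, and in 7 of 9 arms every 8 h library was above every 0 h library. Reads of the CNOT4 and ZFP36L1-labelled arms also differed in kind. They covered 29.9 to 35.7 and 27.5 to 36.9 T positions per read in the long intervals, against 42.2 to 43.4 in NT. The multimapped share of the reads in long intervals was 3.48% to 7.18% and 5.02% to 7.74% in these arms, against 3.38% to 3.98% in NT. The part of these differences in the results on both arms was not tested.

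The most abundant long intervals per kb in NT belonged to housekeeping genes. NUCKS1, a chromatin-associated nuclear phosphoprotein, had 36427 NT reads per kb, followed by SERBP1, a ribosome-associated mRNA-binding protein, with 32896. RPL14, a protein of the large ribosomal subunit, had 23772 NT reads per kb. UQCRB, a subunit of respiratory complex III, had 20485, SLC25A3, the mitochondrial phosphate carrier, had 12240 and HNRNPR, an hnRNP protein, had 12165. In libraries read from the poly(A) end such a value per kb depends on interval length as well as on mRNA level. Multimapped reads made up 25.6% of the RPL14 reads and 13.3% of the SERBP1 reads in NT, so both may include reads of near-identical copies, but at most 0.795% in the other 4. NUCKS1 had 616, 791 and 919 CPM as its lowest, median and highest NT library, and HNRNPR had 164, 277 and 366.

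Long intervals kept less label on average than the matched short intervals in every arm. In NT the pooled T>C rate of the 936 long intervals at 8 h of chase was 24.2% ± 1.8 of its 0 h mean (SD, n = 3). The matched short intervals kept 29.2% ± 1.6 (SD, n = 3). In BRCA1 the values were 26.3% ± 0.9 and 31.2% ± 2.0. In ZMAT5 they were 30.0% ± 1.4 and 35.5% ± 1.0, and in ZNF706 26.1% ± 0.7 and 30.6% ± 1.3. The widest gap was in the libraries labelled ZFP36L1, with 18.0% ± 0.5 against 26.4% ± 0.7, and CNOT4 kept 30.7% ± 1.3 against 36.9% ± 1.2. In these 6 arms the replicates of long and matched short intervals did not overlap at 8 h.

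The other 3 arms had wider replicates that overlapped. MAZ kept 20.1% ± 3.2 in long and 24.3% ± 3.5 in matched short intervals, and ZMAT3 kept 27.2% ± 3.9 and 33.1% ± 4.5. PHF7 kept 20.5% ± 11.7 and 26.9% ± 13.4, with the shallow library among its 3 at 8 h. Within single libraries the order was steadier. The long intervals kept a smaller share than the matched short ones in 24 of 27 libraries at 2 h, in 27 of 27 at 4 h and in 27 of 27 at 8 h. The replicate ranges did not overlap in 0, 4 and 6 of 9 arms at these times. No test was made of this difference, since the set was described with earlier results of these data known.

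**Figure D1:**
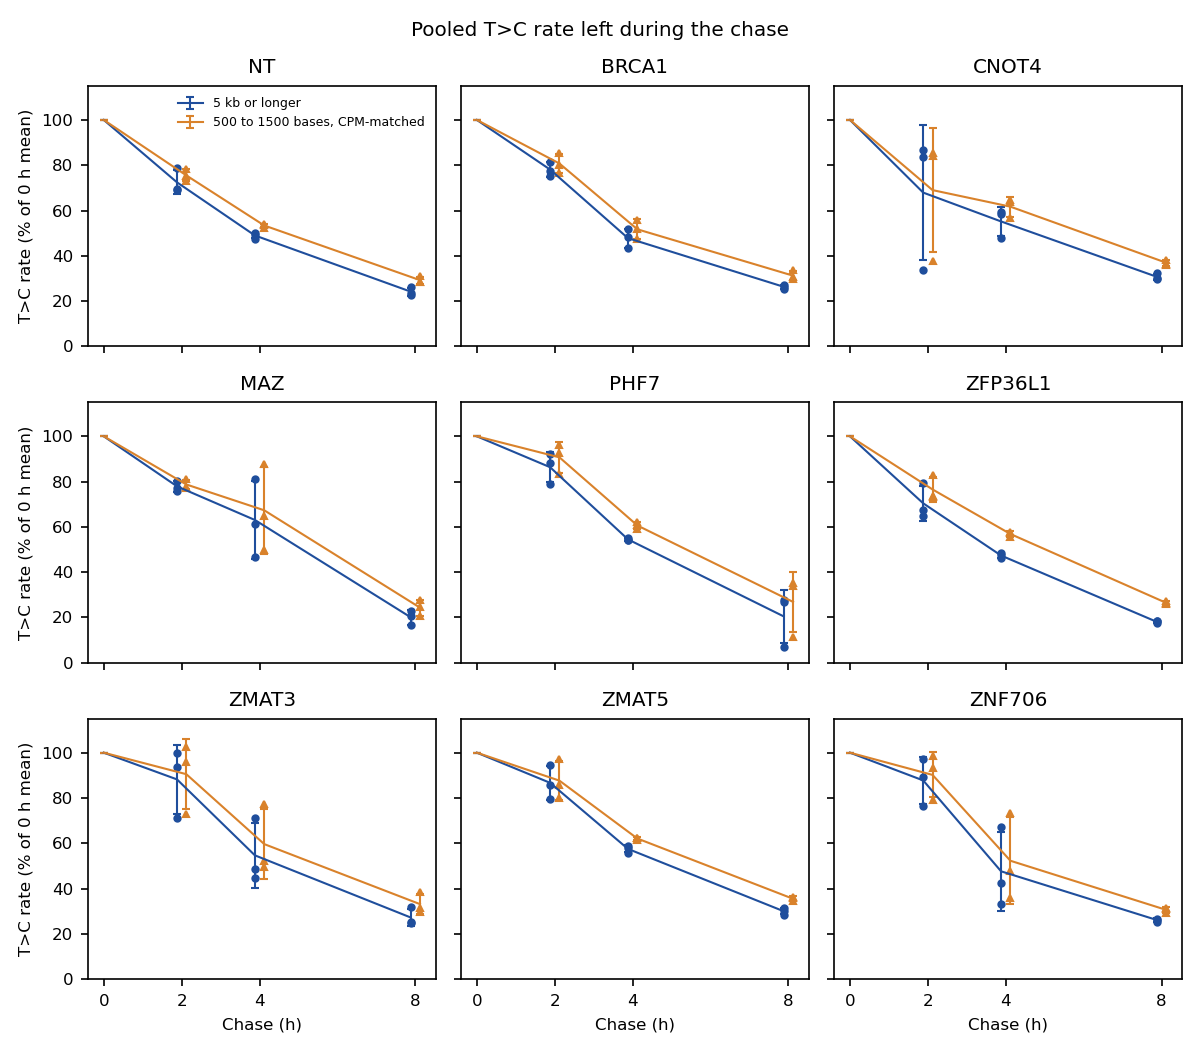
Pooled T>C rate as a percent of each arm's 0 h mean (vertical axis) against hours of chase (horizontal axis) in the 9 hairpin arms. Points are single libraries, lines join the means of 3 replicates and bars are the SD, with blue circles for the 936 intervals of 5 kb or longer and orange triangles for CPM-matched intervals of 500 to 1500 bases, and the blue mean lies below the orange mean in 9 of 9 arms at 2, 4 and 8 h.

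Half-lives had the same order. An exponential curve was fitted to the replicate means set to 1 at 0 h and kept where R2 was over 0.6. In NT the curve was kept for 622 long intervals, with a median half-life of 2.24 h and quartiles of 1.32 and 3.56 h, and the matched short intervals had a median of 2.82 h. Curves on single NT replicates gave medians of 1.81, 2.01 and 1.72 h in long and 2.19, 2.26 and 2.21 h in matched short intervals, so the replicates did not overlap. The medians of long and matched short intervals were 2.29 and 2.78 h in BRCA1, 3.68 and 4.12 h in MAZ, and 3.63 and 4.51 h in PHF7. They were 2.91 and 3.65 h in the libraries labelled ZFP36L1, 4.03 and 4.83 h in ZMAT3, 3.22 and 3.65 h in ZMAT5, and 3.08 and 3.82 h in ZNF706. In CNOT4 they were 3.10 and 3.12 h, a gap smaller than the spread between its replicate curves. The replicates did not overlap in NT, BRCA1, PHF7 and ZMAT5 and overlapped in the other 5 arms.

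**Figure D2:**
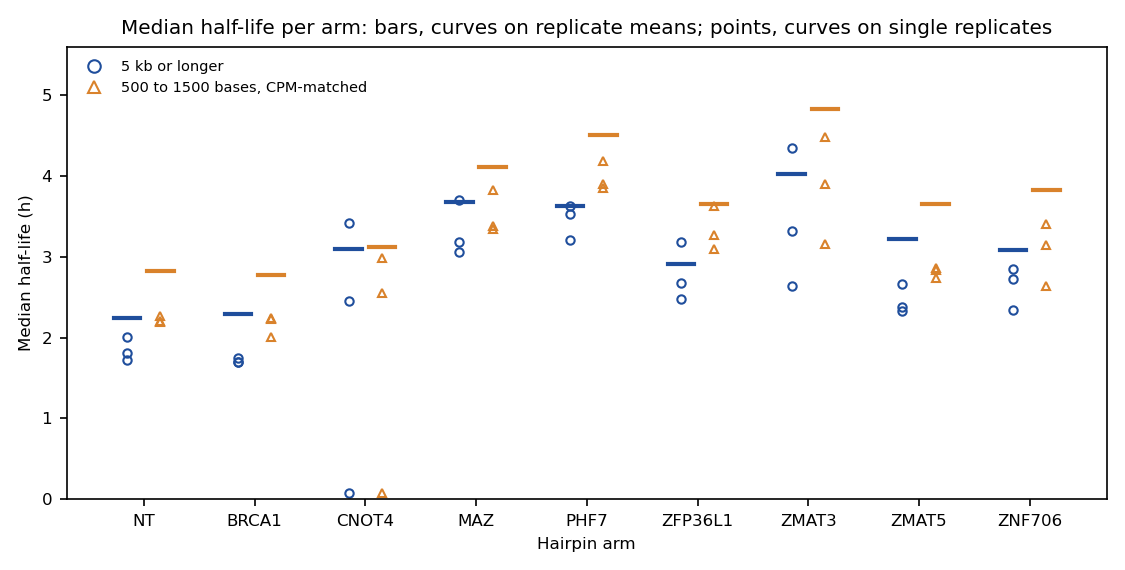
Median half-life in hours (vertical axis) of intervals of 5 kb or longer (blue) and CPM-matched intervals of 500 to 1500 bases (orange) in each hairpin arm (horizontal axis). Bars are medians from curves on replicate means and points are medians from curves on single replicates. The blue bar lies below the orange bar in every arm, by 2.24 against 2.82 h in NT and by 3.10 against 3.12 h in CNOT4. In CNOT4 the curve of replicate 3, which includes the shallow 2 h library, fell near 0 h in both classes.

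Many long intervals carried almost no label in some arms, which bears on these half-lives. In NT, 76 of the 936 long intervals (8.12%) had a pooled T>C rate under 0.05% at 0 h, against 4.68% of the matched short ones, and 347 (37.1%) against 26.1% did so at 8 h. The threshold was chosen after the values were seen. The counts at 0 and 8 h were 87 and 383 in BRCA1, 43 and 233 in ZMAT5, 15 and 130 in ZNF706, and 18 and 35 in CNOT4. They were 0 and 64 in MAZ, 1 and 59 in PHF7, 0 and 29 in the libraries labelled ZFP36L1, and 1 and 26 in ZMAT3. The median long interval still had 54253 covered T positions over the 3 NT libraries at 0 h, and 110 of the 622 NT half-lives were under 1 h. The order of long and short was not the same in every arm. At 8 h CNOT4 had 3.74% of long and 6.67% of matched short intervals under this rate and ZFP36L1 3.10% and 4.09%, while BRCA1 had 41.3% and 29.4% and ZMAT5 24.9% and 15.3%. Their part in the difference between long and short intervals was not tested.

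At the start of the chase the label itself differed with the arm. The median T>C rate of long over matched short intervals within each 0 h library was 0.746 ± 0.0050 in NT (SD, n = 3), 0.737 ± 0.037 in BRCA1 and 0.821 ± 0.023 in ZMAT5. It was 0.874 ± 0.0072 in ZNF706, 0.901 ± 0.038 in MAZ, 0.858 ± 0.18 in CNOT4 and 0.962 ± 0.016 in ZMAT3. In PHF7 it was 0.993 ± 0.016 and in the libraries labelled ZFP36L1 1.07 ± 0.014, so the long intervals were the more labelled class there. From pooled rates the same ratios were 0.906 in NT and 0.886 in BRCA1, and they lay above 1 in PHF7 at 1.02 and in ZMAT3 at 1.01. The pooled rate of the long intervals at 0 h ran from 1.26% ± 0.055 in ZMAT5 to 3.22% ± 0.58 in ZMAT3, with 1.69% ± 0.073 in NT (SD, n = 3).

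Among the long intervals, half-life was longer at higher levels and showed no order with length. Over the 622 NT half-lives the Spearman correlation with length was −0.01, a description across intervals that share their libraries. Intervals under 6000 bases, from 6000 to under 8000, from 8000 to under 12000 and of 12000 or more kept 27.5% ± 1.3, 20.1% ± 2.3, 22.8% ± 2.3 and 27.8% ± 3.1 of their label at 8 h in NT (SD, n = 3). The median half-life was 0.618 h below 10 CPM, 2.14 h from 10 to 50 CPM and 3.91 h over 50 CPM, and the label kept at 8 h was 12.3% ± 3.3, 15.7% ± 1.6 and 29.8% ± 2.2. These CPM classes differ in depth as well, and its part was not tested. The 199 long intervals without an AU-rich core kept 27.7% ± 0.70 at 8 h and the 336 with 3 or more kept 20.7% ± 1.5, with no overlap of the replicates and median lengths of 5930 and 7146 bases. Those with 1 and 2 kept 24.5% ± 4.9 and 25.3% ± 1.6. Median half-lives with 0, 1, 2 and 3 or more cores were 2.50, 2.47, 1.95 and 2.23 h, without a steady order. With Pumilio cores the replicates overlapped, at 27.2% ± 3.8 in intervals without one and 23.9% ± 0.70 in those with 3 or more. The 27 intronic intervals kept 11.2% ± 1.4 and the 833 in canonical 3′ UTRs kept 24.7% ± 1.7, again without overlap, but their median half-lives were in the other order, at 2.40 and 2.28 h.

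The slowest and fastest named intervals had half-lives that spanned the range of the chase and beyond. TMEM59, a membrane protein of the Golgi and lysosome, had the longest kept NT half-life at 20.0 h, with T>C rates of 1.74%, 0.999% and 1.08% at 0 h and 0.266%, 1.05% and 1.67% at 8 h. RPL14 followed with 18.0 h, RBBP4, a histone-binding subunit of several chromatin complexes, with 16.7 h, and HSBP1, which binds heat shock factor, with 15.7 h. All 4 exceed the 8 h of chase and are extrapolations. In the other arms with a kept curve, TMEM59 ran from 8.53 to 16.2 h over 4 arms and RBBP4 from 6.98 to 22.0 h over 7.

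The 4 shortest half-lives of at least 1 h were 1.01 h in RAPH1, an actin regulator at the cell edge, 1.01 h in STXBP5, a syntaxin-binding protein, 1.02 h in MAN1A2, a Golgi mannosidase, and 1.02 h in the kinase DYRK2. All 5757 bases of the RAPH1 interval overlap a gene on the opposite strand, so its values may include reads of that gene. RAPH1 had T>C rates of 3.92%, 0.239% and 1.81% at 0 h, and DYRK2 had 2.14%, 1.33% and 2.93%. At 8 h RAPH1 was at 0.0178%, 0 and 0, and DYRK2 at 0.0369%, 0.0395% and 0.382%. The other arms with a kept curve gave RAPH1 0.700 to 3.55 h over 8 arms and DYRK2 1.41 to 2.88 h over 7. SMAD2, the longest interval and the signal transducer of the TGF-β pathway, held 28 AATAAA, 8 AU-rich cores and 8 A runs and had an NT half-life of 2.54 h, with 14.0, 21.1 and 32.5 CPM as its lowest, median and highest NT library.

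Just inside the length limit stood PLXNA2 with 5003 bases, MRPS23 with 5004 and EIF5A2 with 5004, and just outside it GSPT1 with 4993, ERLIN2 with 4988 and SMCR8 with 4987. MRPS23, a protein of the mitochondrial ribosome, had an NT half-life of 11.9 h. EIF5A2, a hypusinated translation factor, had 1.58 h, and PLXNA2, a semaphorin receptor, had no kept curve in NT.

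Functional lists of long intervals, small and chosen with earlier results known, kept different shares of label in NT. The 21 kinases and phosphatases kept 6.54% ± 4.4 at 8 h (SD, n = 3), the 19 transcription factors 7.67% ± 4.0 and the 14 members of the ubiquitin pathway 8.59% ± 4.7. The 11 chromatin regulators kept 16.1% ± 6.8, the 16 RNA-silencing and RNA-binding genes 16.7% ± 4.2, and the 11 genes of membrane traffic and the cytoskeleton 17.6% ± 5.0. The 3 deadenylation and decay factors kept 27.8% ± 10.9. The means of the other 6 lists lay below the 24.2% of all 936 long intervals, a pooled value in which abundant intervals weigh most. Beside the 15.7% ± 1.6 of long intervals of 10 to 50 CPM, the class that holds the median level of these 6 lists, the chromatin, RNA-binding and traffic lists lay at or above it. The replicates of the kinases and phosphatases, 2.65% to 11.3%, did not overlap those of the RNA-binding genes, 12.2% to 20.5%, but overlapped those of the chromatin regulators. Median half-lives were 1.76 h in transcription factors and 2.08 h in the ubiquitin pathway, below the 2.24 h of all long intervals. They were 2.32 h in kinases and phosphatases, 2.48 h in the RNA-binding genes, 2.67 h in chromatin regulators, 2.92 h in the traffic genes and 4.98 h in the decay factors, above it.

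Read counts were then compared between each knockdown and NT over all intervals of the table by edgeR, and an interval was called at an adjusted p under 0.05 with over 1.2-fold change. Between 1032 and 1091 of the 1270 long intervals passed the low-count filter of a comparison, and all 936 well-read ones did. The 936 and the matched short intervals were chosen by NT reads alone, so intervals low in NT but high in a knockdown are missing from both. In MAZ 20 of 30 higher and 35 of 35 lower calls of long intervals lay in the 936, and in ZMAT5 27 of 27 and 35 of 36. The 8 comparisons share the NT libraries and are therefore not independent. In bulk RNA, a lower level in each cell and fewer cells with the mRNA cannot be told apart. With the BRCA1 hairpin 0 of 1032 long intervals were called in either direction by edgeR, where 0.0234% of all intervals were called higher and 0.0234% lower. There 48 long intervals (4.65%) had an unadjusted p under 0.05, against 6.14% of all intervals, and DESeq2 called 2 lower.

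Long intervals changed most in CNOT4 and in the libraries labelled ZFP36L1. In CNOT4, 256 of 1083 were called higher and 83 lower, where 19.3% of all intervals were called higher and 14.5% lower, or 33.8% either way. Of the 936 well-read long intervals 24.4% were higher and 8.87% lower, and of the matched short intervals 8.50% and 18.9%. The median log2 change was 0.29 in the long, −0.23 in the matched short and 0.18 in all intervals tested. By chase time, the difference of mean log2 CPM was taken with a prior count of 2. The median of the long intervals was 0.27 at 0 h, −0.19 at 2 h, 0.26 at 4 h and 0.56 at 8 h, so at 2 h it went the other way. The 2 h mean includes replicate 3, with 1781724 reads and 617 long intervals detected, against 1043 and 1087 in replicates 1 and 2. The T>C rate of the long intervals in replicate 3 was 0.501%, against 1.29% and 1.24%. Its part in the 2 h median was not tested. In the libraries labelled ZFP36L1, 321 of 1091 were called higher and 117 lower, with 30.3% and 16.8% of all intervals, or 47% either way. Of the 936, 28.8% were higher and 12.5% lower, against 14.9% and 27.4% of the matched short intervals. The medians were 0.24, −0.14 and 0.35. Without its 8 h libraries, CNOT4 had 165 long intervals higher and 71 lower of 1111, with medians of 0.19 in the long and −0.29 in the matched short intervals. Without its shallow 2 h library it had 335 higher and 105 lower.

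The other 5 knockdowns changed few long intervals. In MAZ 30 of 1083 were called higher and 35 lower, with 6.08% and 1.97% of all intervals, or 8.05% either way. In PHF7 the counts were 17 and 25 of 1071, with 6.2% and 2.64%, or 8.84% either way. In ZMAT3 they were 42 and 26 of 1080, with 8.07% and 2.8%, or 10.9% either way. In ZMAT5 they were 27 and 36 of 1053, with 4.38% and 2.72%, or 7.1% either way, and in ZNF706 19 and 18 of 1063, with 2.81% and 1.26%, or 4.08% either way. In these arms the median log2 change of the 936 lay between −0.02 and 0.06 and that of the matched short intervals between 0.04 and 0.09. That of all intervals, which had no minimum of NT reads, lay between 0.13 and 0.26. The part of that minimum in the gap to all intervals was not tested. With size factors by relative log expression in place of TMM the split of higher and lower calls moved to 21 and 53 in MAZ, 26 and 40 in ZMAT3, 20 and 41 in ZMAT5, and 9 and 23 in ZNF706. Under that scaling the median of the 936 was −0.01 in ZMAT3 and −0.03 in ZNF706, against 0.06 and 0.02. Without the shallow library, PHF7 had 58 long intervals higher and 42 lower.

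**Figure D3:**
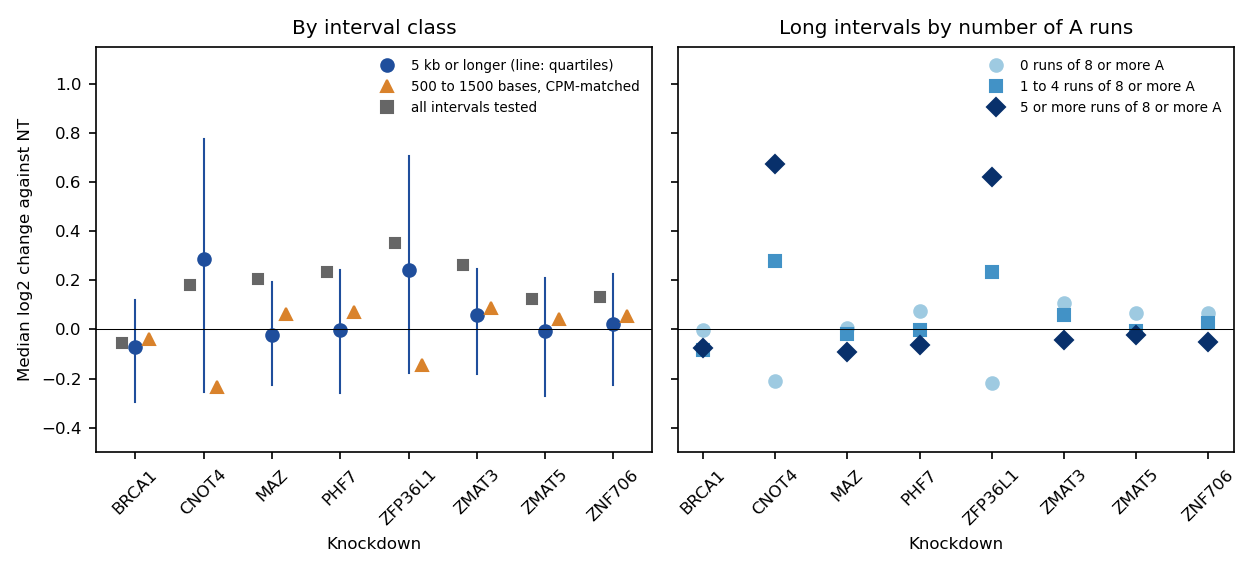
Median log2 change against NT (vertical axis) for each knockdown (horizontal axis). On the left are the 936 intervals of 5 kb or longer with the quartiles as a line, the CPM-matched short intervals and all intervals tested; on the right are the long intervals by number of A runs, where CNOT4 and ZFP36L1 run from −0.21 and −0.22 without a run to 0.67 and 0.62 with 5 or more.

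Within these arms the change of a long interval went with its A runs, in classes set after the values were seen. In CNOT4 the median log2 change was −0.21 in the 137 long intervals without a run, 0.28 in the 641 with 1 to 4 and 0.67 in the 158 with 5 or more, and the share called higher was 8.03%, 22.0% and 48.1%. In the libraries labelled ZFP36L1 the medians were −0.22, 0.23 and 0.62, and the shares 7.30%, 26.1% and 58.9%. In the other 6 knockdowns the medians of the 3 classes lay between −0.09 and 0.11. Over the 936 intervals the Spearman correlation of the change with A runs per kb was 0.33 in CNOT4 and 0.36 in ZFP36L1, and between −0.13 and −0.02 elsewhere. These intervals share their libraries, and the change also correlated with log CPM at −0.29 in both arms and with length at 0.14 and 0.12. The short intervals, here without CPM matching, showed the order too, with CNOT4 medians of −0.29 without a run and 0.10 with 1 to 4.

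Single libraries separated by this measure. Of the reads in the 936 long intervals, those without an A run took 12.3% to 13.5% in the 12 NT libraries, 8.42% to 10.7% in CNOT4 and 8.47% to 9.93% in the libraries labelled ZFP36L1. All 24 libraries of both arms lay below every library of the other 7 arms. Intervals with 5 or more runs took 19.4% to 21.2% in NT, 22.9% to 26.7% in CNOT4 and 22.5% to 25.6% in ZFP36L1. The lower number of T positions per read given above was found in the same arms. The higher multimapped share was found there too, except in the 8 h CNOT4 libraries. These had 3.48%, 3.74% and 3.57% multimapped reads in long intervals, and intervals without a run took 9.04%, 8.64% and 8.42%. The part of both measures was not tested.

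**Figure D4:**
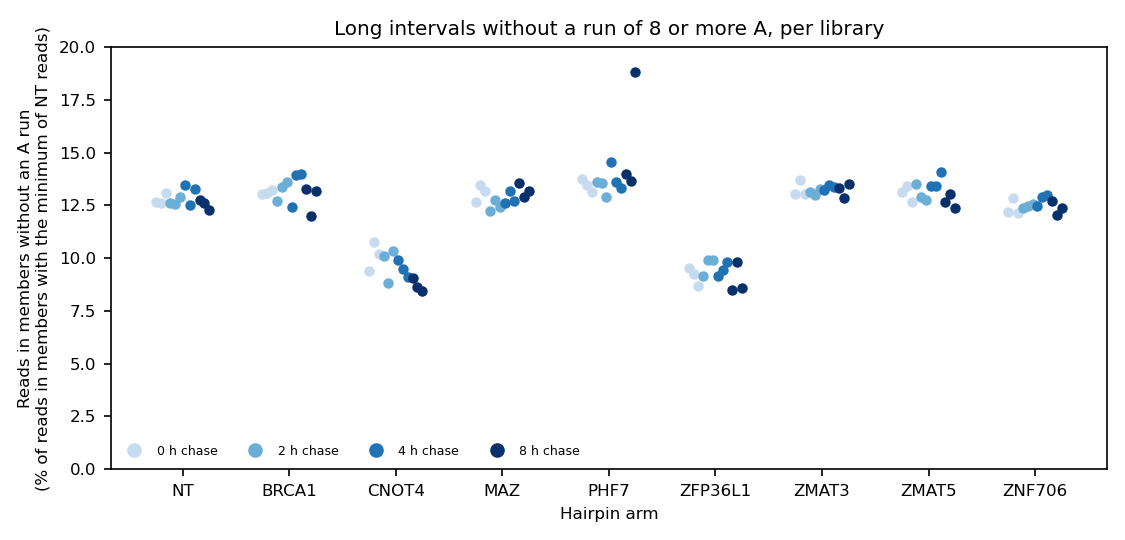
Percent of the reads in the 936 well-read long intervals that fell in the 137 without a run of 8 or more A (vertical axis), per library, by hairpin arm (horizontal axis), with darker points for longer chase. CNOT4 and ZFP36L1 libraries lie between 8.42% and 10.7%, below NT at 12.3% to 13.5%, and the single point near 18.8% in PHF7 is the shallow 8 h library.

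In CNOT4 the largest gains were in intervals that are not the canonical 3′ UTR of their gene. GOLGB1, the Golgi matrix protein giantin, had 118, 242 and 673 TMM-normalised CPM as the lowest, median and highest of the 12 CNOT4 libraries and 0, 22.9 and 55.5 in NT. The groups did not overlap, and the log2 change was 3.39 ± 0.45 (SE, edgeR adjusted p = 4.3e-07). All bases of this interval lay in a coding exon of the canonical transcript, and it held 36.2% of the NT reads of the gene. SHPRH, a ubiquitin ligase and helicase, had 10.0, 49.1 and 83.1 CPM in CNOT4 and 0, 4.62 and 10.5 in NT, with a log2 change of 3.55 ± 0.56 and groups that met at the edge. Its interval lay 97.4% in an intron of the canonical transcript, held 10.2% of the NT reads of the gene and had 535 NT reads in all.

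The largest losses in CNOT4 were in MOB1B, an adaptor of the Hippo pathway, and OGFRL1. MOB1B had 0, 10.0 and 22.8 CPM in CNOT4 and 23.3, 38.7 and 52.7 in NT, with no overlap and a log2 change of −2.01 ± 0.44 (edgeR adjusted p = 0.00060). OGFRL1 had 0, 10.1 and 16.5 CPM against 0, 35.7 and 57.6, with overlap and a change of −1.84 ± 0.63, and its adjusted p was 0.066 without the 8 h CNOT4 libraries. The call of MOB1B was lost without replicate 2 and that of OGFRL1 without any single replicate number. Neither interval held an A run.

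In the libraries labelled ZFP36L1 the largest gain, in the calcium-dependent kinase CAMK4, was made of multimapped reads. It had 45.3, 138 and 410 CPM there and 0, 7.85 and 31.3 in NT, a log2 change of 4.05 ± 0.54, but 92.9% of its reads in these libraries mapped to several places, against 0.354% in NT, and the call was lost once they were subtracted. SHPRH rose by 3.27 ± 0.48, with 17.8, 35.9 and 71.4 CPM against 0, 4.37 and 9.82 and no overlap, at a multimapped share of 2.42%. PLEKHA8, a lipid transfer protein of the Golgi, fell from 15.8, 34.5 and 85.5 CPM in NT to 3.37, 7.92 and 15.3, without overlap, at −2.08 ± 0.25 (edgeR adjusted p = 8.5e-08). ZNF740, a zinc finger protein, changed by −1.49 ± 0.20.

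With the ZMAT5 hairpin the 2 kinases HIPK2 and UHMK1 did not overlap NT, HIPK2 only narrowly. HIPK2, a nuclear kinase of the DNA damage response, had 33.1, 51.5 and 70.4 CPM as the lowest, median and highest ZMAT5 library and 71.3, 122 and 199 in NT. The groups did not overlap and the log2 change was −1.39 ± 0.15 (edgeR adjusted p = 5.3e-08). UHMK1, a serine/threonine kinase that acts on splicing factors, had 198, 247 and 353 CPM against 81.5, 117 and 136, again without overlap, at 1.18 ± 0.096 (edgeR adjusted p = 8.3e-11). PRTG, a membrane protein of the immunoglobulin superfamily, changed by 1.16 ± 0.32 and KLC1, a kinesin light chain, by −1.18 ± 0.30, both with overlap. The calls of PRTG and KLC1 were lost without any single replicate number, and 97.4% of the KLC1 interval lay outside the canonical transcript.

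The ZMAT3 interval is the 3′ UTR of a hairpin's own target, an RNA-binding zinc finger protein induced by p53. With the ZMAT3 hairpin it had 2.12, 6.47 and 16.4 CPM as lowest, median and highest, and 15.3, 24.7 and 44.6 in NT. Only the edges of the groups overlapped, and the log2 change was −1.96 ± 0.32 (edgeR adjusted p = 0.00010). HIPK2 changed by −1.12 ± 0.14 in the same arm, with 45.8, 63.8 and 80.9 CPM against 72.2, 124 and 201 and overlap at the edge. The largest gains were in YOD1, a deubiquitinase, at 0.91 ± 0.16, with 93.3, 119 and 134 CPM against 30.0, 54.8 and 111, and in SHTN1, which acts in axon growth, at 0.80 ± 0.22. The call of SHTN1 was lost without replicate 2 or replicate 3. HIPK2 was also called lower in MAZ at −0.75 and in PHF7 at −0.83. It was called higher in CNOT4 at 1.25 and in the libraries labelled ZFP36L1 at 0.45. The PHF7 call of HIPK2 was lost without replicate 2 and the ZFP36L1 call without replicate 1.

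In MAZ the largest gains were in SLC7A11, the cystine transporter, and CDK6, a kinase of the G1 phase. SLC7A11 had 44.3, 89.9 and 177 CPM against 21.2, 45.6 and 87.2 in NT, with overlap, at 1.01 ± 0.20 (edgeR adjusted p = 0.0012), and CDK6 changed by 0.96 ± 0.22. The largest losses were in ZMAT3 at −0.97 ± 0.30 and in XPR1, the phosphate exporter, at −0.90 ± 0.21, both with overlap. The MAZ calls of CDK6 and XPR1 were lost without replicate 2, and that of ZMAT3 without any single replicate number.

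In PHF7 a single shallow library raised the size of both named gains. Named changes had to keep 1 sign at all 4 times. The median log2 difference of the long intervals was −2.19 at 8 h, where that library lies, and 0.10, 0.17 and 0.13 at 0, 2 and 4 h. Both are therefore the largest gains that met this rule and may not be the largest of all called gains. MTMR3, a phosphoinositide phosphatase, had 50.1, 65.6 and 826 CPM against 11.4, 40.1 and 57.2 in NT, at 1.29 ± 0.35. The value of 826 came from 98 reads in the shallow library, and without it the change was 0.84 (edgeR adjusted p = 0.0025). TTPAL changed by 1.16 ± 0.33, and by 0.84 without that library (edgeR adjusted p = 0.022). The call of MTMR3 was lost without replicate 1 or replicate 2 and under DESeq2, and that of TTPAL without any single replicate number. HRK, a BH3-only activator of apoptosis, had 0, 6.46 and 9.85 CPM against 10.3, 20.4 and 48.8, with no overlap, at −1.93 ± 0.38 and −1.88 without the shallow library. XPR1 changed by −1.36 ± 0.25.

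In ZNF706 the losses were larger than the gains. CCND2, cyclin D2, had 9.14, 30.4 and 52.2 CPM against 47.2, 67.1 and 96.0 in NT, overlapping only at the edge, at −1.24 ± 0.19 (edgeR adjusted p = 7.0e-05). ZNF778, a KRAB zinc finger gene, changed by −1.56 ± 0.41. ATXN7L3B, a homologue of a subunit of the SAGA deubiquitinase, rose by 0.72 ± 0.092, with 230, 370 and 480 CPM against 160, 216 and 269, and LMBR1, a membrane protein, by 0.71 ± 0.19. The calls of ZNF778 and LMBR1 were lost without any single replicate number. CCND2 was also called in other arms, with −1.13 ± 0.19 in ZMAT5, −1.03 ± 0.19 in PHF7 and 0.96 ± 0.12 in MAZ, each against the same NT libraries.

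**Figure D5:**
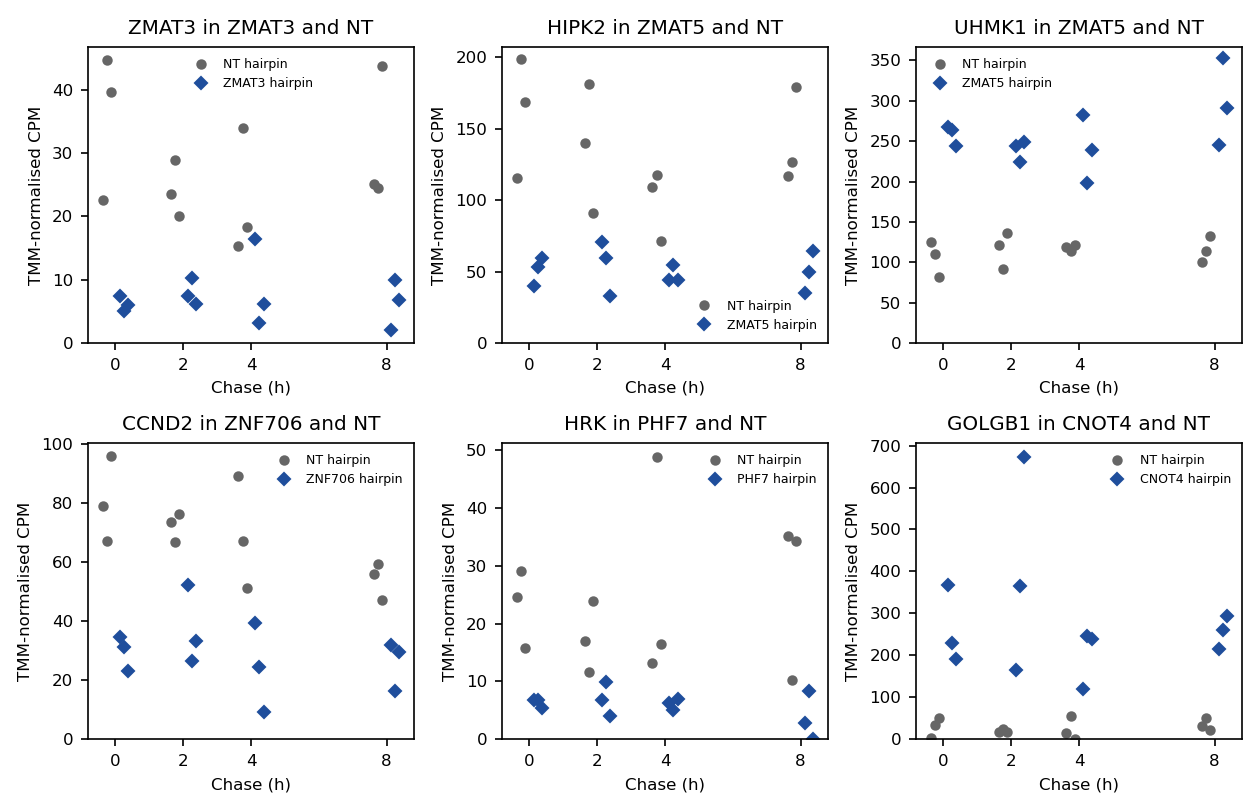
TMM-normalised CPM (vertical axis) of 6 long intervals against hours of chase (horizontal axis), with grey circles for NT libraries and blue diamonds for the knockdown named above each panel, 3 libraries per arm and time. HIPK2 in ZMAT5, HRK in PHF7, UHMK1 in ZMAT5 and GOLGB1 in CNOT4 separate from NT without overlap, while ZMAT3 in ZMAT3 and CCND2 in ZNF706 overlap at the edge of the groups.

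Some long intervals were called in several comparisons, each against the same NT libraries. Of the 936, 571 were called higher in none and 735 lower in none. In 4 or more comparisons 6 were called higher, while 6 were called lower in 4 and 2 in 5. The share of all intervals called as often is not given here, so these counts do not set the long intervals apart. Among the functional lists, MDM2, the ubiquitin ligase that controls p53, changed by −0.78 ± 0.16 in CNOT4, −0.72 ± 0.15 in PHF7, −0.61 ± 0.13 in ZFP36L1 and −0.76 ± 0.14 in ZMAT3. FOXK1, a forkhead transcription factor, changed by −0.64 ± 0.17 in MAZ, −0.65 ± 0.15 in ZMAT3, −0.97 ± 0.22 in ZMAT5 and −1.21 ± 0.18 in ZNF706. MAP3K2, a kinase of the ERK5 pathway, rose by 1.47 ± 0.17 in CNOT4 and 1.09 ± 0.15 in ZFP36L1, without overlap in either, and by 0.54 ± 0.15 in ZMAT5 and 0.50 ± 0.14 in ZNF706.

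RPL37, RBBP4 and PDE12 were named after their values were seen, for their number of calls. RPL37, a ribosomal protein, was higher in 6 comparisons, from 0.29 ± 0.091 in ZMAT5 to 2.55 ± 0.089 in ZFP36L1, where it had 721, 940 and 1137 CPM against 138, 159 and 243 in NT. Its multimapped share was 17.5% in the libraries labelled ZFP36L1 against 3.12% in NT. The RPL37 calls in ZMAT5 and ZNF706 were lost without any single replicate number, and those in MAZ and ZMAT3 without replicate 2 or replicate 3. Those in CNOT4 and ZFP36L1 were kept under every alternative. RBBP4 was lower in 5 comparisons, from −0.34 ± 0.081 in ZMAT5 to −1.17 ± 0.098 in CNOT4, where it had 177, 284 and 340 CPM against 528, 594 and 751. PDE12, a phosphodiesterase that degrades 2′-5′ oligoadenylate, was lower in 5, from −0.44 ± 0.11 in MAZ to −0.79 ± 0.18 in CNOT4. The RBBP4 calls in ZMAT5 and ZNF706 were lost without replicate 1 or replicate 3. The PDE12 calls in CNOT4, MAZ and ZNF706 were lost without replicate 2, and that in MAZ also without replicate 3.

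Calls within the functional lists were most numerous in CNOT4 and in the libraries labelled ZFP36L1. Of the 19 transcription factors 10 were higher and 1 lower in CNOT4, with a median log2 change of 0.91 beside 0.18 over all intervals, and 11 and 1 in ZFP36L1, with 0.61 beside 0.35. The higher ones in both included CREB1, NFIA, NFIB and TCF4, and the lower one was SP1. Of the 21 kinases and phosphatases 7 were higher and 1 lower in CNOT4 and 8 and 2 in ZFP36L1, and of the 14 members of the ubiquitin pathway 5 were higher in each, with 1 and 2 lower. Over all intervals 19.3% were higher and 14.5% lower in CNOT4, and 30.3% and 16.8% in ZFP36L1, and the shares of the kinase and ubiquitin lists called higher in ZFP36L1 were near that background. Of the 16 RNA-silencing and RNA-binding genes, AGO3, CELF1, IGF2BP1, RBFOX2, RC3H1 and TNRC6B were called higher in CNOT4, none lower, and 7 were higher and 2, both intervals of QKI, lower in ZFP36L1. Of the 3 decay factors, with a median of −0.34 in CNOT4, CNOT6L was higher in CNOT4, and CNOT6L and CNOT7 were higher and DCP2 lower in ZFP36L1. In MAZ, PHF7, ZMAT3, ZMAT5 and ZNF706 no list had more than 3 members called in a direction.

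Loss of label was compared with edgeR on conversions with T coverage as offset, as the difference in slope over the chase between a knockdown and NT. Only intervals with at least 500 NT reads and T coverage in every library of a comparison were tested. In ZMAT3, 6 of 784 long intervals lost label more slowly than in NT and 0 faster, where 1.1% and 0.0726% of all 9639 intervals tested did so. Most of these calls depended on the fit, with 2 slower under the replicate block and 2 with the 5 CPM filter. Without replicate 1 there were 1 slower and 1 faster, without replicate 2 there was 1 slower, and without replicate 3 there were 2 slower. C15orf40 had T>C rates of 1.41%, 1.57% and 1.17% at 0 h and 0, 0.0138% and 0.0127% at 8 h in NT, and 2.72%, 3.13% and 3.45% at 0 h and 1.06%, 1.24% and 0.443% at 8 h in ZMAT3. Its rate of loss was 0.597 per h in NT and 0.162 per h in ZMAT3 (edgeR adjusted p = 0.015), and at 8 h the groups did not overlap. WDFY2, a protein of early endosomes, had NT rates of 0.969%, 0 and 2.12% at 0 h, a single replicate above 0 at 2 h and none at 4 and 8 h, and it lost 0.254 per h in ZMAT3 (edgeR adjusted p = 0.037). The other 4, DGKH, RPP14, PIAS1 and ZC3H10, had adjusted p from 0.042 to 0.047 and were named after their values were seen. ZC3H10 had an NT rate of 0 from 2 h on, so the NT slopes of WDFY2 and ZC3H10 are not resolved. In PIAS1, 3141 bases of the interval overlap a gene on the opposite strand. All 6 had a higher mean T>C rate at 0 h in ZMAT3 than in NT, as did the pooled long intervals of that arm, and its part in the slopes was not tested.

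In the other 7 comparisons edgeR called 0 of the long intervals tested in either direction. The need for T coverage in every library left only 233 of the 936 to test in PHF7 and 538 in CNOT4. Without its shallow 8 h library PHF7 had 6 slower and 0 faster, and without its shallow 2 h library CNOT4 had 2 slower and 0 faster. At an unadjusted p under 0.05 there were 49 of 701 (6.99%, against 7.45% of all intervals tested) in BRCA1, 53 of 538 (9.85% against 7.40%) in CNOT4, 68 of 784 (8.67% against 8.02%) in MAZ and 30 of 233 (12.9% against 8.97%) in PHF7. There were 92 of 784 (11.7% against 9.66%) in ZFP36L1, 69 of 780 (8.85% against 9.18%) in ZMAT5 and 69 of 777 (8.88% against 7.94%) in ZNF706. Over all intervals the calls of slower and faster loss were 0% and 0% in BRCA1, 0.0352% and 0% in CNOT4, 0.0624% and 0% in MAZ, 0.19% and 0% in PHF7, 0.137% and 0.0526% in ZFP36L1, 0.0631% and 0.021% in ZMAT5, and 0% and 0.0106% in ZNF706. By limma 11 long intervals were slower and 2 faster in PHF7, 14 slower in ZMAT3 and 1 slower in ZMAT5, and 0 were called in the other 5. The median difference in slope of the long intervals, positive for slower loss, was largest in CNOT4, at 0.092 per h beside 0.053 per h over all intervals tested. In long intervals the 8 h CNOT4 libraries had a multimapped share of 3.48% to 3.74%, against 5.45% to 7.18% in the earlier ones. They covered 33.0 to 35.7 T positions per read against 29.9 to 34.3, with overlap. The part of both measures in the slope was not tested.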

How the data were processed

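SLAM-seq libraries were made from poly(A) ends (QuantSeq 3′ ends). Per the labels and methods the authors mapped reads to hg38 with SlamDunk 0.4.3, keeping multimapped reads, and deposited 1 table per library with a row per 3′ UTR interval. The deposited read counts per interval are raw counts. The deposited CPM are reads scaled to library size, and the T>C rates are the fraction of converted over covered T positions, here summed from the deposited conversion and coverage counts. For the strand setting and variant mask, no value is given in the sources used here.

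Counts were tested with edgeR 4.0.16 in R 4.3.3 (quasi-likelihood, TMM, filterByExpr, arm plus chase time, 12 against 12 libraries, Benjamini-Hochberg over all intervals), with DESeq2 1.42.0 as an alternative. Loss of label was tested with edgeR on conversions with log T coverage as offset, and with limma 3.58.1. Matching used bins of 0.5 in log2 CPM. Sequences were read from hg38 with pysam 0.24.0, positions from GENCODE 44, and tables and plots were made with Python 3.11.15, numpy 2.4.6, pandas 2.3.3 and matplotlib 3.10.9. The test scripts were tested on simulated data.

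The members and lists were chosen with earlier results of these data known. Named intervals were the 6 with most NT reads per kb, per knockdown the 2 largest called changes each way of 1 sign at all 4 times, up to 2 each way called for loss of label, the 4 longest and 4 shortest half-lives of at least 1 h, the 3 on each side of 5000 bases, the longest, and list members called in at least 4 knockdowns in 1 direction. Others are said to be named later. The study's methods call the 3 replicates biological. Neither they nor the labels say at which step, transduction or culture, the replicates were separate, so p-values measure only the spread between these samples. Same-numbered libraries did not deviate together (correlations from −0.159 to 0.0912, with 0 of 12 pairs above 0.1 in each comparison). Reads carry no molecular identifiers. Alternatives were DESeq2, other scaling, no filter, multimapped reads subtracted, 1 interval per locus, a replicate block, other half-life fits, other length limits and leaving out replicates or shallow libraries.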

Additional observations from a re-analysis of the deposited data

How the results depend on the processing

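Of 195 values under an alternative for 28 results, 131 kept their direction and lay within the limits for no change, 61 moved and 3 reversed. Under DESeq2 the long intervals called for expression were 2 in BRCA1 (0 by edgeR), 130 in MAZ (65), 113 in PHF7 (42), 122 in ZMAT3 (68), 104 in ZMAT5 (63) and 61 in ZNF706 (37). With no low-count filter BRCA1 had 1, and without its shallow 8 h library PHF7 had 100. Leaving out 1 replicate number gave 200 to 349 in CNOT4 (339), lowest without replicate 2, 23 to 36 in MAZ, 8 to 59 in PHF7, lowest without replicate 2, 30 to 39 in ZMAT3, 27 to 32 in ZMAT5, 10 to 18 in ZNF706 and 344 to 389 in ZFP36L1 (438). The replicate numbers do not pair the libraries, and with the replicate block the counts were 0 in BRCA1, 325 in CNOT4, 70 in MAZ, 52 in PHF7, 464 in ZFP36L1, 77 in ZMAT3, 63 in ZMAT5 and 34 in ZNF706. For loss of label the replicate block left 2 in ZMAT3 (6) and 0 elsewhere. There the 5 CPM filter gave 2 in ZMAT3 and 1 in ZMAT5, limma 14 in ZMAT3, 13 in PHF7 and 1 in ZMAT5, and the fits without a shallow library 6 in PHF7 and 2 in CNOT4. Leaving out 1 replicate number gave 1 to 2 in ZMAT3, 0 to 4 in PHF7, 0 to 1 in MAZ and 0 to 1 in ZFP36L1.

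The NT half-life of long intervals was 2.71 h with the 5 CPM filter and 3.08 h with no R2 minimum. That of the matched ones was 3.27 h and 4.01 h there, 2.73 h from a straight line of ln rate, 2.77 h and 2.89 h with length limits of 4000 and 7000 bases, and 2.57 to 2.68 h without 1 replicate. The log2 ratio of both medians was −0.33, and −0.23 from the straight line. The 0 h ratio reversed to 1.02 from pooled rates and 1.01 without CPM matching in PHF7, and to 1.01 from pooled rates in ZMAT3. From pooled rates it moved to 0.906 in NT, 0.886 in BRCA1, 0.965 in MAZ, 1.10 in ZFP36L1, 0.928 in ZMAT5 and 0.936 in ZNF706, and without matching to 0.777 in NT, 1.09 in ZFP36L1, 0.981 in ZMAT3, 0.849 in ZMAT5 and 0.899 in ZNF706. The cause was not tested. Of 111 named changes called, 0 reversed and 54 were called under every alternative run, while 35, 41 and 29 were lost without replicate 1, 2 or 3. The shallowest library, in PHF7, had 63659 reads; the part of depth in the T>C rates of intervals under 10 CPM was not tested.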
